A study of Mus musculus with 2 samples.

Results

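Replication-dependent histone genes supply the histone proteins that package newly made DNA. They were taken here as the protein-coding genes whose mouse symbol in the GENCODE M21 annotation begins with Hist1h, Hist2h, Hist3h or Hist4h. This rule gave 67 genes, namely 6 for H1, 18 for H2A, 18 for H2B, 12 for H3 and 13 for H4, and 64 of them had a row among the 43346 Ensembl gene rows of the deposited tables. Hist2h2bb, Hist1h2bm and Hist1h2bh had no row of their own. By cluster, 54 of the 67 genes lie in Hist1 on chromosome 13, 10 in Hist2 on chromosome 3, 2 in Hist3 on chromosome 11 and Hist4h4 by itself on chromosome 6.

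The study measured total RNA of the mouse limb at embryonic day 10.5 in strain B6NCrl, in embryos of both sexes. There was 1 group of 2 biological replicates, each a pool, with limbs of 69 embryos in replicate 1 and of 51 in replicate 2. RNA over 200 nt was kept after mirVana extraction, and 10 ng with added spike-in RNAs entered each library. The labels point to the SMARTer Ultra Low RNA kit by its user manual and give no treatment, genotype or contrast, so levels within the tissue are described and the libraries are set side by side. All 6 limb mesenchyme markers checked were present, from 27.6 TPM for Tbx5 to 307 TPM for Msx1, and the 4 neural tube markers stayed at a mean TPM of 0.11 or less. TPM is the abundance of a gene per unit of length on a scale with the same total in each library.

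Replication-dependent histone mRNAs are made in S phase and, unlike other mRNAs, normally end in a short stem-loop instead of a poly(A) tail. The stem-loop is bound by SLBP and cut free by a complex that holds the U7 small nuclear RNA, and the genes have no introns as a rule and sit in clusters. Replacement histones such as H2A.Z and H3.3 come from separate polyadenylated genes and are made throughout the cell cycle. In bulk tissue, fewer cells in S phase and less histone mRNA per such cell cannot be told apart.

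The stem-loop was searched in the M21 transcripts as a perfect inverted repeat of 6 bases, opening with GG, around a loop of 4. It lay in the last 150 bases of a transcript in 24 of the 67 members and anywhere after the stop codon in 46. With 1 mismatch allowed in the stem it was found in 48. The 46 members carried 8 versions of the 16-base element. H1, H2A, H2B and H3 genes shared a GGCTCT stem, whereas the 12 H4 genes with an element had a GGCCCT stem in 10 and a GGTCCT stem in 2. The sequences below show the 12 bases before the stem-loop in lower case and the stem-loop in capitals, for members on which the levels turn and for each form of the stem.

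Hist1h2ap and Hist1h2ao: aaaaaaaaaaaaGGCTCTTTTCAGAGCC
Hist1h2ae: aaaaaaaacaaaGGCTCTTTTCAGAGCC
Hist1h2ab: aaccaaaacaaaGGCTCTTTTCAGAGCC
Hist1h2ag: atcgccaacaaaGGCTCTTTTCAGAGCC
Hist1h1e: caacaacccaaaGGCTCTTTTCAGAGCC
Hist1h2bk: tctagcaccaaaGGCTCTTTTAAGAGCC
Hist1h3c: tatttaaaaaaaGGCTCTTTTAAGAGCC
Hist1h3g: aaccactttaaaGGCTCTTCTTAGAGCC
Hist1h4d: ccaaaaaccaaaGGCCCTTTTCAGGGCC
Hist1h4i: atgctacttaaaGGCCCTTTTTAGGGCC
Hist1h4b: actgttacaaaaGGTCCTTTTCAGGACC

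Hist1h2ap and Hist1h2ao had an unbroken run of 12 A bases directly before the stem-loop. A run of 12 A bases, a length taken from these members, was present at any position in 248 of 34820 transcripts of 300 to 800 nt from protein-coding genes (0.712%). Hist1h2ae followed with 11 A bases among the 12, and the other members with an element had 3 to 9. Hist1h4d, which was the second highest member, had 8. Whether these A bases bear on the measured levels was not tested.

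The 64 members with a row ranged from 0 to 5671 TPM, with a median of 5.17 TPM. Of these, 51 (79.7%) were expressed, meaning at least 1 TPM in each library, beside 55.2% of the 21474 protein-coding rows. Only 20 members reached 10 TPM in both libraries and 4 reached 100 TPM, namely Hist1h2ap, Hist1h4d, Hist1h2ae and Hist1h3i. The median was 2.76 TPM over all protein-coding rows and 21.3 TPM over the expressed ones. Members' expected counts, the estimated reads per gene, summed to 70871 in replicate 1 and 74009 in replicate 2, which were 0.183% and 0.175% of all gene counts.

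**Figure D1:**
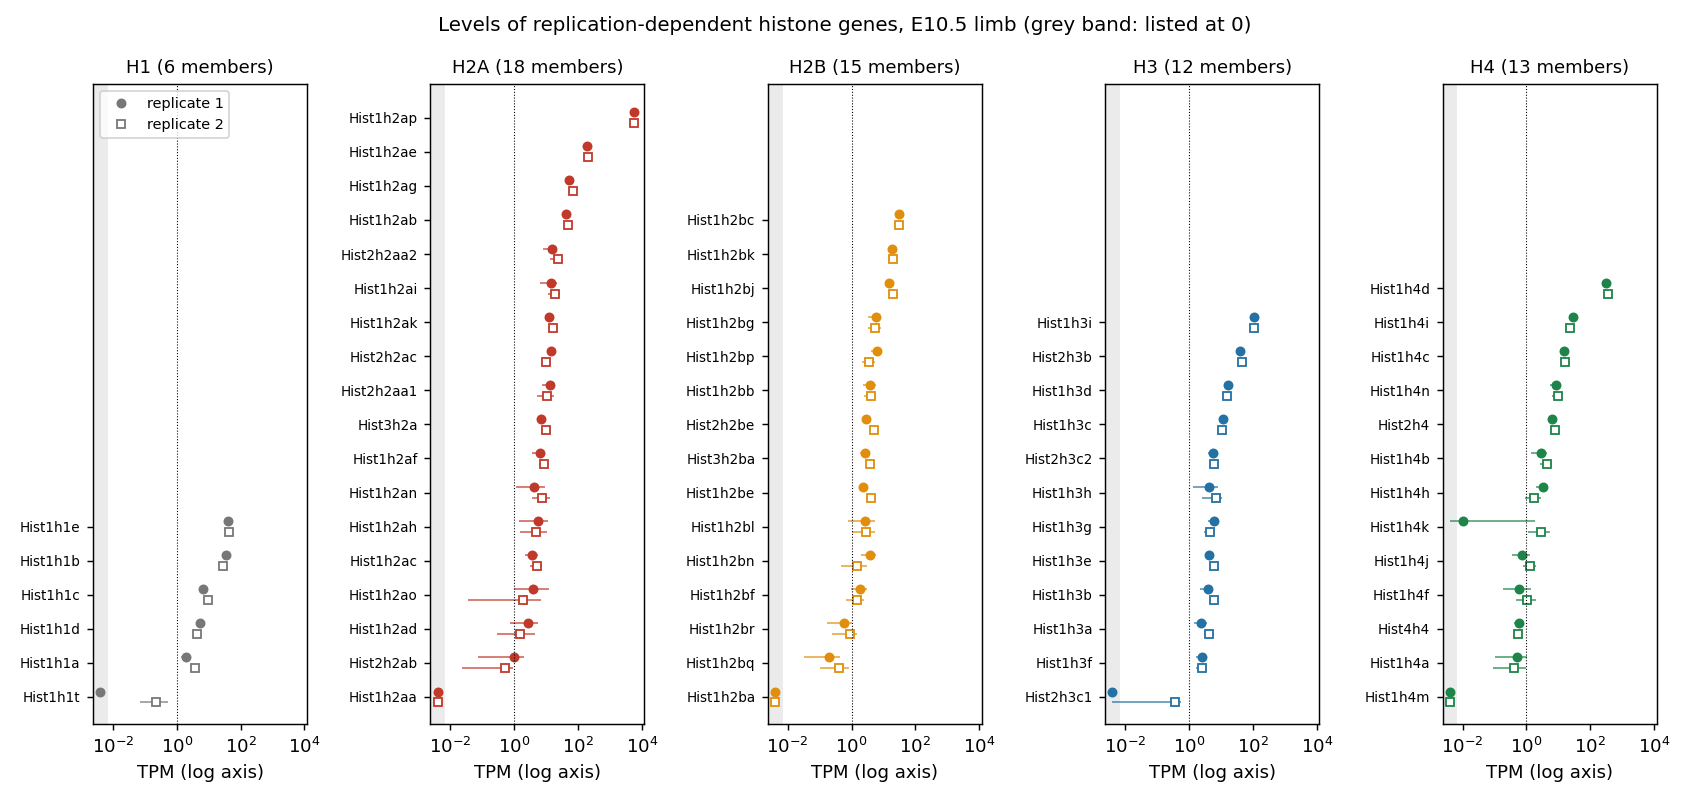
TPM of each member on a log axis, by histone type, with replicate 1 as filled circles and replicate 2 as open squares. Lines are the intervals in the deposited tables, the dotted line marks 1 TPM, and Hist1h2ap stands above all other members at 5671 and 5565 TPM.

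Summed over members, H2A took 88.6% of the TPM in replicate 1 and 87.9% in replicate 2. H4 took 5.66% and 6.15%, H3 2.95% and 3.17%, H2B 1.43% and 1.502%, and H1 1.30% and 1.30%. This order rested on Hist1h2ap, which by itself held 82.9% and 81.5%. Without it, H2A fell to 33.7% and 34.6% and H4 rose to 33.1% and 33.2%, so that both types were near the same sum. The H2B sum, over the 15 members with a row, was then 0.253 and 0.244 of the H4 sum. It leaves out H2B transcripts in other rows, such as those of Hist2h2bb (8.94 and 6.91 TPM) and Hist1h2br (7.90 and 8.47 TPM). The H3 sum was 0.522 and 0.515 of the H4 sum.

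**Figure D2:**
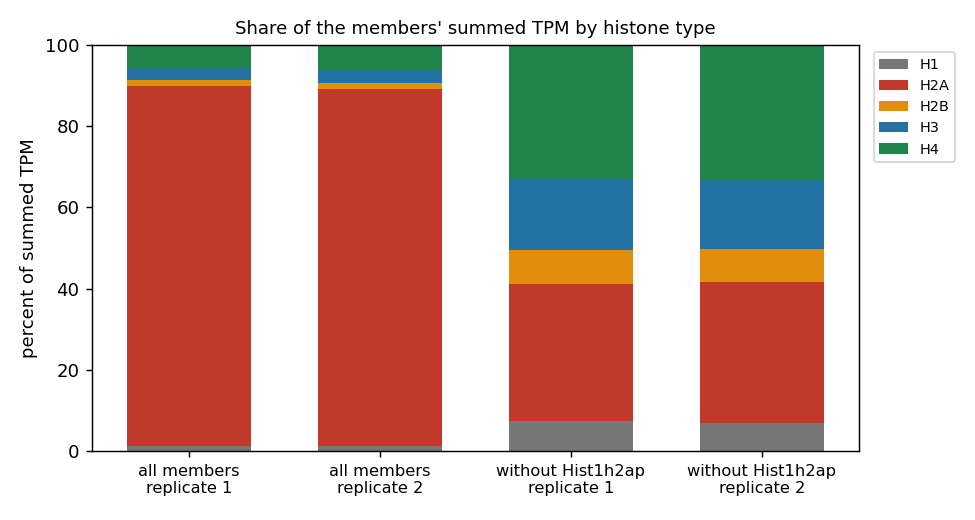
Percent of the members' summed TPM taken by each histone type in each library, for all members (left pair of bars) and without Hist1h2ap (right pair). H2A falls from 88.6% to 33.7% in replicate 1 when Hist1h2ap is left out.

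The H1 genes encode linker histones, which bind DNA between nucleosomes. Hist1h1e was the highest of the 6, at 40.9 TPM in replicate 1 and 43.7 TPM in replicate 2 (42.3 ± 1.96, SD, n = 2). Hist1h1b followed at 34.1 and 27.8 TPM, with intervals below those of Hist1h1e in both libraries. Hist1h1c stood at 6.67 and 9.24 TPM, again with separate intervals. Hist1h1d and Hist1h1a were lower still, at 5.29 and 4.25 TPM and at 2.00 and 3.85 TPM. The testis-specific linker gene Hist1h1t was listed at 0 in replicate 1 and had 4 counts in replicate 2 (0.23 TPM), near the level of 0.179 and 0.171 TPM that 3 counts would give.

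H2A genes encode a core histone that pairs with H2B. Hist1h2ap (ENSMUSG00000094777.2, chr13:21833026-21833507, minus strand) was listed at 5671 TPM in replicate 1 and 5565 TPM in replicate 2, from 57909 and 59205 expected counts. It ranked 3 among protein-coding genes and was 17.8 and 15.8 times as high as Hist1h4d. The intervals that the tables give around the posterior mean, 5500 to 5596 TPM and 5400 to 5494 TPM, lie below the listed TPM.

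Hist1h2ap could not be read apart from Hist1h2ao (ENSMUSG00000094248.1, chr13:21810465-21810944, plus strand) over most of its length. Of its 383 windows of 100 bases, 353 were also present in Hist1h2ao, and only the first 30 windows were found in no other gene (7.83%). In Hist1h2ao only the last 28 of 381 windows were its own (7.35%). Windows of their own lie only at the ends of the models, which begin and stop at different places. Hist1h2ap stops 3 bases past the stem-loop and Hist1h2ao 31 bases past it. Whether bases at these ends differ between the copies was not compared. Hist1h2ao was listed at 4.01 and 1.83 TPM, so 99.93% and 99.97% of the summed level of the pair, 5675 and 5567 TPM, was assigned to Hist1h2ap. Some windows of each copy were also present in further genes, 17 for each when the partner copy is included. The sum is the level listed for the pair, and it too rests on how reads were divided among those genes. Which copy the RNA came from was not tested.

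The promoter windows of RefSeq span 250 bases before to 50 after the start (GRCm38.p6). Those of both genes shared an identical stretch of 200 bases, upstream of both genes as M21 places them. In Hist1h2ao the stretch includes the 50 bases after the RefSeq start. The stretch reaches the edge of a window at each end, so its full length was not measured. The 150 bases of the stretch farthest from the gene are shown because they do not set the copies apart either. They lie at chr13:21833576-21833725 on the minus strand for Hist1h2ap and at chr13:21810217-21810366 on the plus strand for Hist1h2ao. Capitals mark CCAAT, read on either strand.

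Upstream of Hist1h2ap and Hist1h2ao: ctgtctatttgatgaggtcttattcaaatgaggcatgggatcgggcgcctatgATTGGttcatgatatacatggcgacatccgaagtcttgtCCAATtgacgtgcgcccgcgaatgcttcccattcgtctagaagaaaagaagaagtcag

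Next among the H2A genes were Hist1h2ae, at 195 and 203 TPM, and Hist1h2ag, at 52.0 and 68.3 TPM. Hist1h2ae stood above Hist1h2ag with separate intervals in both libraries, by 3.74 and 2.97 times. In its M21 model of 704 nt, 69.3% of windows were its own. The deposited model is shorter, at 460 nt, and its share was not computed. Hist1h2ab followed at 43.4 and 47.1 TPM, with intervals that overlap those of Hist1h2ag in replicate 1 and lie below them in replicate 2. Hist2h2aa1 and Hist2h2aa2, another pair of near-identical copies, were listed at 12.9 and 10.4 TPM and at 15.8 and 23.0 TPM, and no window of Hist2h2aa2 was its own. Hist2h2ab was the lowest H2A gene with counts, at 1.02 and 0.52 TPM. The testis gene Hist1h2aa had no count in either library, which allows up to 0.387 and 0.371 TPM. In all, 16 of 18 H2A members were expressed, and 3 of the 17 steps in their order had separate intervals in both libraries.

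H2B genes were lower and more even. Hist1h2bc led at 31.0 and 29.7 TPM, followed by Hist1h2bk at 18.9 and 19.7 TPM and Hist1h2bj at 15.4 and 20.3 TPM. The M21 model of Hist1h2bc, 1156 nt in 2 exons, held no stem-loop, and the deposited model of 736 nt differs from it. Hist1h2bc stood above Hist1h2bk with separate intervals, whereas Hist1h2bk and Hist1h2bj overlapped. The other members were listed at 0 to 6.31 TPM. Hist1h2bq was the lowest with counts, at 0.19 and 0.40 TPM in its own row. These counts lay on a transcript whose M21 model had no window of its own. The testis gene Hist1h2ba had no count in either library, which allows up to 0.395 and 0.379 TPM.

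Several H2B transcripts sat in gene rows other than their own. The M21 transcript of Hist2h2bb was listed under the row of Gm42743 at 8.94 and 6.91 TPM, where it took 95.4% and 95.9% of the row. A transcript of Hist1h2br had a row apart at 7.90 and 8.47 TPM, beside 0.59 and 0.89 TPM in the Hist1h2br row. A transcript of Hist1h2bq likewise stood apart at 1.65 and 1.55 TPM. Joined by transcript identifier, an alternative chosen after the data were seen, 54 members were expressed in place of 51.

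H3 genes encode the core histone whose tail carries many of the known chromatin marks. Hist1h3i led at 105 and 107 TPM, Hist2h3b followed at 40.2 and 45.3 TPM, and Hist1h3d stood at 16.8 and 15.9 TPM. Each of these steps had separate intervals in both libraries, and Hist1h3i was 2.61 and 2.37 times as high as Hist2h3b. The deposited model of Hist1h3i ends at the stop codon and holds no stem-loop, and 31.4% of its windows were its own. Hist2h3c1 was the lowest, with no count in replicate 1 and 17.6 in replicate 2 (0.37 TPM), and none of its windows was its own. The other 8 H3 members were listed at 2.43 to 11.4 TPM.

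The 13 H4 genes all encode the same protein, from 12 different coding sequences. Hist1h4d (ENSMUSG00000061482.6, chr13:23581598-23582735, plus strand) was listed at 318 and 352 TPM (335 ± 23.5, SD, n = 2). All windows of its M21 model of 1138 nt were its own. The deposited model is shorter, at 393 nt, and its share was not computed. Hist1h4d was 10.7 and 15.5 times as high as Hist1h4i, the next, at 29.8 and 22.7 TPM. Hist1h4c followed at 15.5 and 15.7 TPM, and each of these steps had separate intervals. Hist1h4a was the lowest H4 gene with counts, at 0.51 and 0.40 TPM. Hist4h4, which stands by itself on chromosome 6, was listed at 0.57 and 0.56 TPM. Hist1h4m had no count in either library, and 11.9% of its windows were its own. Only 7 of the 13 H4 members were expressed, the lowest share among the 5 types. Hist1h4d took 82.2% of the H4 sum in replicate 1 and 83.8% in replicate 2.

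Coding sequences of the other types varied more. H2A members held 16 coding sequences for 9 proteins, and the commonest protein was shared by 9 of the 18 genes. H3 members held 12 coding sequences for 3 proteins, with 7 of 12 genes on the commonest, while the 18 H2B genes encoded 12 proteins and the 6 H1 genes 6. This likeness limits how far a level can be placed on a single copy. Across the 67 members the median share of windows found in no other gene was 65.3%, and 13 members with a row had under 20%. These shares are of M21 models. The deposited models of 20 genes differed from them, and some were far shorter, such as Hist1h2ac at 476 nt against 2482 nt in M21.

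Along chromosome 13 the members with a row fell into 4 stretches set apart by over 100 kb. The first (chr13:21715763-21837530) held 17 members and 85.8% and 84.6% of the members' TPM, through Hist1h2ap. The next (chr13:22035164-22043676) held 5 members, all expressed, at a median of 18.9 and 20.3 TPM. The longest (chr13:23531050-23764406) held 28 members, of which 25 were expressed, and took 10.8% and 11.7% of the TPM. The last (chr13:23933773-23934851) held only the testis genes Hist1h2ba and Hist1h2aa, both listed at 0. The 7 male germ cell markers were low as well, with summed levels of 0.43 and 0.55 TPM and Sycp1, Tnp1 and H1fnt at 0. High and low members lay side by side in the longer stretches. Hist1h2ap lay between Hist1h4n, at 8.69 and 9.58 TPM, and Hist1h2br, at 0.59 and 0.89 TPM in its own row.

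**Figure D3:**
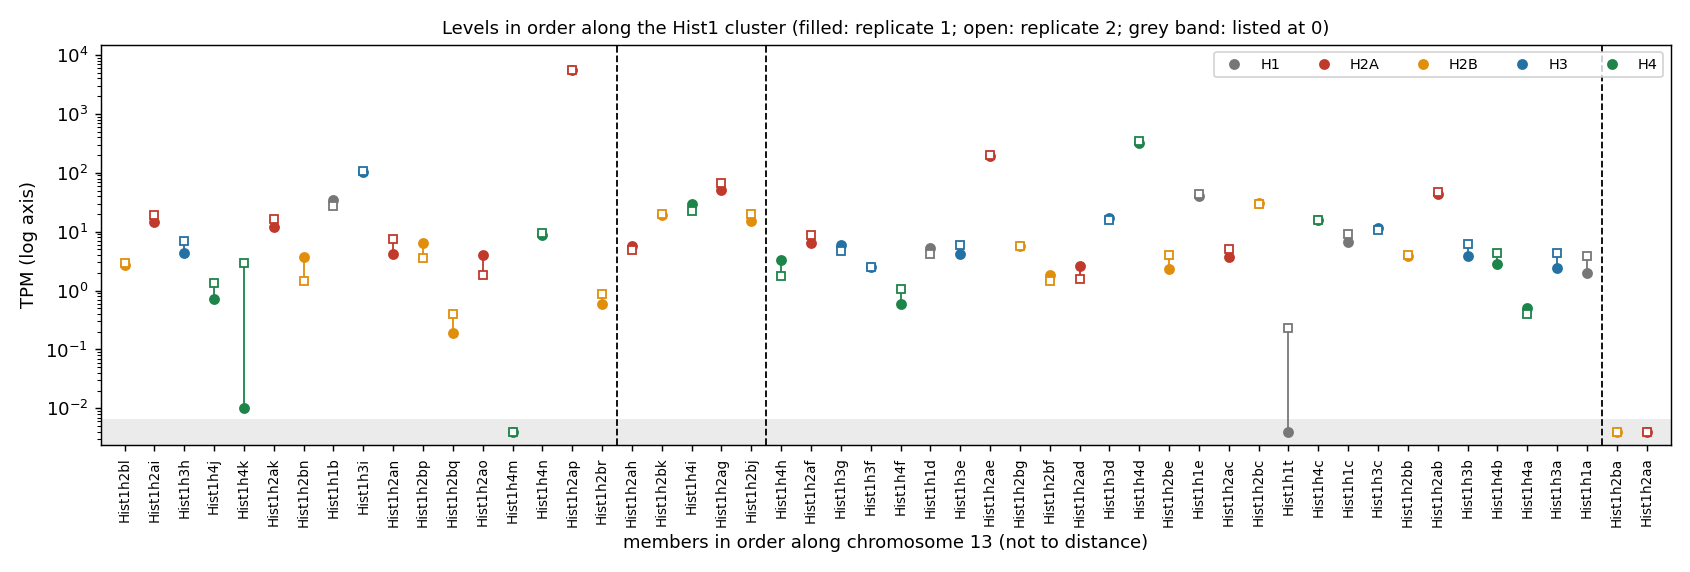
TPM on a log axis for members of the Hist1 cluster in their order along chromosome 13, coloured by histone type, with dashed lines between stretches. Hist1h2ap, Hist1h3i, Hist1h2ae and Hist1h4d stand above 100 TPM among neighbours mostly below 50, and the testis genes at the right end are listed at 0.

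H2A and H2B genes often lie head to head and share the stretch between their starts. Such divergent pairs numbered 12, all of an H2A with an H2B gene, with 176 to 306 bases between the starts. In the 11 pairs with counts, the H2A gene had the higher mean in 9 and the H2B gene in 2. The intervals were separate in both libraries in 8 pairs, with H2A above in 6 and H2B above in 2. The ratio of H2A to H2B ranged from 0.144 for Hist1h2ac and Hist1h2bc to 35.2 for Hist1h2ae and Hist1h2bg, leaving out Hist1h2ap and Hist1h2br, with a median of 3.37 over the 11. Hist1h2ac was listed at 3.67 and 5.08 TPM against 31.0 and 29.7 TPM for its partner. Sharing a start region therefore did not go with equal levels in these tables, although the copies above enter 2 of these pairs. The H2B rows of those pairs also leave out a transcript of Hist1h2br (7.90 and 8.47 TPM) and of Hist1h2bq (1.65 and 1.55 TPM).

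**Figure D4:**
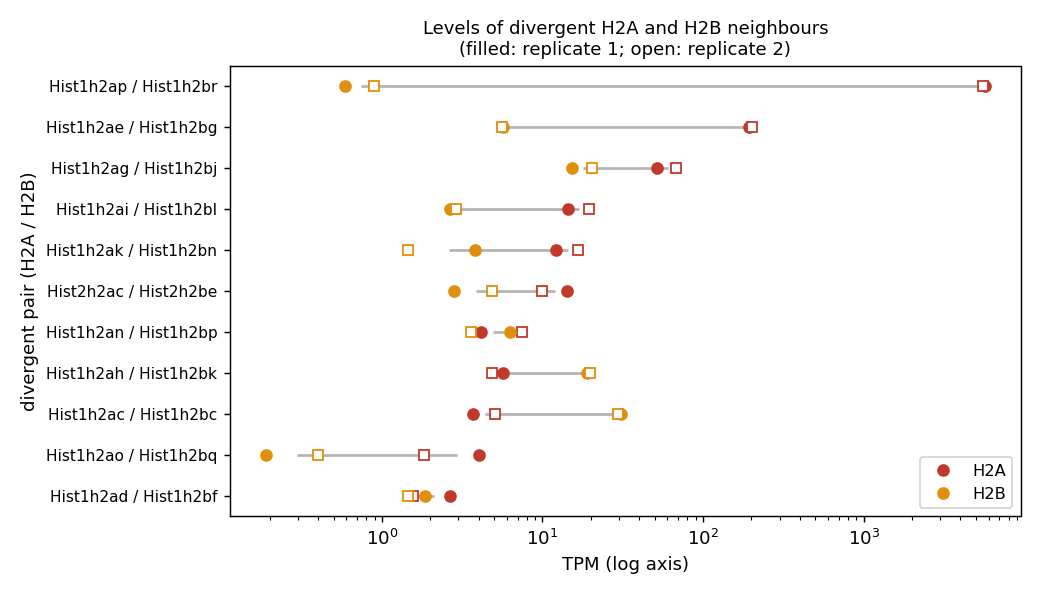
TPM on a log axis of the H2A gene (red) and the H2B gene (orange) in each of the 11 divergent pairs with counts, with replicate 1 filled and replicate 2 open. The pairs of Hist1h2ah and Hist1h2ac have the H2B gene above, and the pair of Hist1h2an changes order between the libraries.

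Promoter windows were matched for 62 members, under RefSeq's GRCm38.p6 assembly, and searched on both strands. CCAAT was present in 53 of the 62 (85.5%), beside 37.4% of all 32851 windows, and TATAAA in 35 (56.5%), beside 13.6%. CCAAT was found in all 50 matched H1, H2A, H2B and H3 genes and in 3 of 12 H4 genes. GGTCCG, the core of the site bound by the H4 gene factor Hinfp, showed the opposite pattern, with 11 of 12 H4 genes, 1 H2B gene, 1 H3 gene and 8.25% of all windows. ATTTGCAT, the octamer bound by Oct factors, was present in 7 of 18 H2A and 6 of 16 H2B genes, in no H1, H3 or H4 gene, and in 1.74% of all windows. These are matches of letters and not measured binding, and the members share sequence by descent, so that they are not independent of each other. Windows of divergent partners can also overlap, as those of Hist1h2ae and Hist1h2bg do, so the same bases can be counted for both genes.

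Transcript models of the members differed in how far they reach past the stem-loop. For 50 of the 73 member transcripts in the tables, M21 held the same model. Of those in the members' own rows, 8 ended within 30 bases past the stem-loop and took 84.9% and 83.8% of the members' TPM, which without Hist1h2ap were 11.5% and 12.7%. Another 19 ran farther and took 1.93% and 2.00%, with Hist3h2a reaching 1643 bases past the element and Hist2h4 1257. The 21 transcripts without an element, 12 of which ended at the stop codon, took 3.50% and 3.84%. The remaining 21, among them those of Hist1h4d and Hist1h2ae, differ from their M21 models, so their ends were not placed against the element. They took 9.72% and 10.3% of the TPM, which without Hist1h2ap were 56.8% and 55.8%. No member had 2 transcripts that each took over 10% of its TPM in both libraries. In Hist1h2be, chosen after its values were seen, a transcript annotated as processed and without a stem-loop took 85.0% and 89.3%.

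The libraries were then compared member by member as the log2 CPM of replicate 2 minus that of replicate 1 after TMM scaling, at a mean count of 10 or more. CPM is the count scaled to the library's total. A member was called at 1.5-fold where its exact binomial interval excluded equality, and no p-value is given for single libraries. Of 55 members tested, 5 were higher in replicate 2 (9.09%), near the background of 7.99% among 16724 genes. Another 5 were lower (9.09%), beside 3.25% of all genes. The median difference of the members was -0.0049 and that of all genes 0.01, and 27 of the 55 members were above 0.

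**Figure D5:**
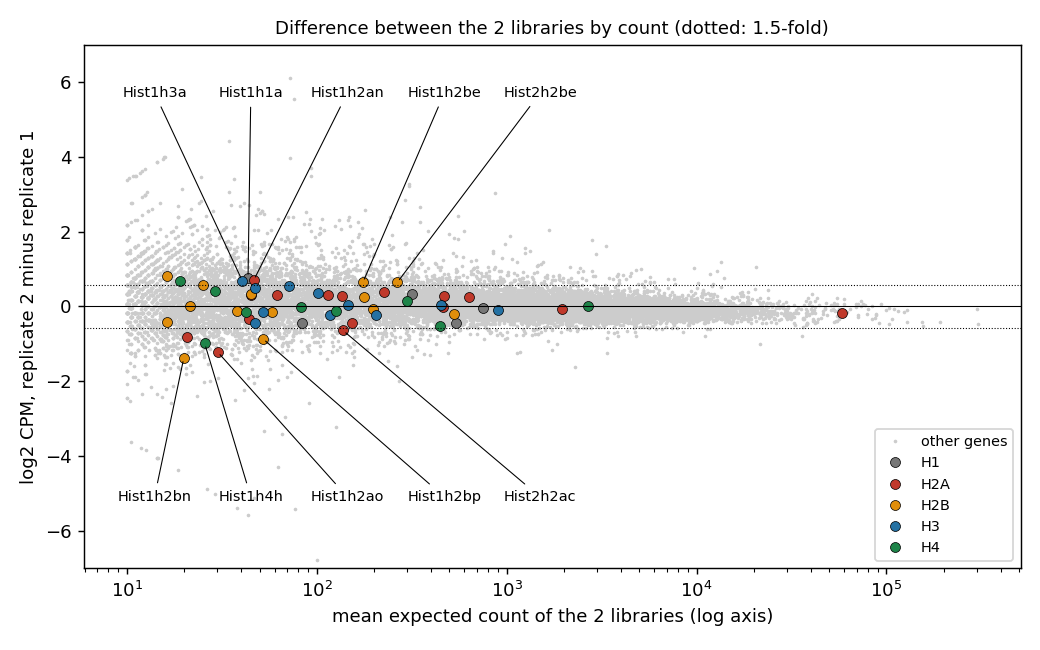
Difference in log2 CPM (replicate 2 minus replicate 1) against the mean expected count on a log axis, for members by histone type over all other genes in grey, with dotted lines at 1.5-fold. The 10 called members are named, and 7 of them have mean counts under 100, where the grey points spread widely.

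Hist1h1a rose from 29 to 58 counts (log2 difference 0.76, interval 0.14 to 1.498), Hist1h2an from 32.3 to 61.0 (0.70, 0.09 to 1.40) and Hist1h3a from 28.2 to 52.9 (0.69, 0.04 to 1.44). Hist2h2be, with 190 and 341 counts, and Hist1h2be, with 125 and 225, were the other members higher in replicate 2, both by 0.64. In Hist1h2be the processed transcript without a stem-loop went from 104 to 197 counts, and its protein-coding transcripts went from 9.49 to 27.6 and from 11.8 to 0. No stem-loop was found in the model of Hist2h2be. Hist1h2bq had the largest upward difference, 0.83, but from 10.2 and 22.4 counts its interval of -0.20 to 2.18 included 0. The members higher in replicate 2 thus came from H1, H2A, H2B and H3.

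Hist1h2bn fell from 28.5 to 11.4 counts (-1.38, interval -2.70 to -0.49), Hist1h2ao from 40.8 to 19.4 (-1.22, -2.17 to -0.49) and Hist1h4h from 33.0 to 18.5 (-0.99, -1.99 to -0.20). Hist1h2bp, with 64.6 and 39.6 counts (-0.86, -1.504 to -0.31), and Hist2h2ac, with 159 and 116 (-0.64, -1.01 to -0.30), were the other members lower in replicate 2. Hist1h2ao shares nearly all its windows with Hist1h2ap, and only 16.7% of the windows of Hist1h2an were its own, a division of reads that intervals from counts do not carry. The tables' TPM intervals were separate between the libraries in 3 of the 10 called members (Hist1h1a, Hist1h2be and Hist2h2be) and overlapped in 7. Among the members of 10 to 30 counts the median size of the difference was 0.67, beside 0.49 among all genes of such counts. Among the members of 30 to 100 counts the median size of the difference was 0.40, beside 0.38. The 4 members above 100 TPM differed by -0.17 (Hist1h2ap), 0.01 (Hist1h4d), -0.08 (Hist1h2ae) and -0.11 (Hist1h3i), all within 1.5-fold.

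Markers of some cell types differed between the pools. Of the 6 limb mesenchyme markers, Tbx4, at 19.7 and 41.1 TPM, and Pitx1, at 64.98 and 126.5 TPM, were called higher in replicate 2, whereas Tbx5, at 28.8 and 26.4 TPM, was not called. Muscle markers, from Actc1, Myod1 and Myog, summed to 11.0 TPM in replicate 1 and 48.1 in replicate 2, and cartilage markers to 132 and 299 TPM, with all 3 of each list called higher. Erythroid markers summed to 11734 and 9554 TPM, with 2 of 6 called lower, and ectoderm markers to 136 and 105 TPM, with 2 of 4 called lower. None of the 3 endothelial or 4 macrophage markers was called. Their part in the members' differences was not tested.

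Genes that make, bind and remove histone mRNA were present throughout, in lists drawn up from their known roles. Of 18 genes of 3′ end processing, 17 were expressed at a list median of 70.6 and 78.0 TPM. Slbp, which binds the stem-loop, was at 296 and 293 TPM, and the Sm proteins Snrpg and Snrpb, shared with the splicing machinery, were highest at 992 and 915 and at 880 and 805 TPM. Lsm10 and Lsm11, which are particular to the U7 particle, were at 34.6 and 40.4 TPM and at 5.73 and 5.28 TPM, and Zfp473 was lowest among those expressed at 2.58 and 2.14 TPM. The U7 RNA gene Rnu7 was listed at 0 in libraries of RNA over 200 nt, which U7 is shorter than.

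All 14 genes of transcription and S phase control were expressed. Ccna2 and Ccne1, cyclins of S phase and of its entry, were highest at 202 and 204 TPM and at 162 and 132 TPM. Npat, the coactivator of histone genes, was at 15.7 and 18.6 TPM, and Hinfp at 16.4 and 16.8 TPM. In the decay list, 13 of 13 genes with a row were expressed, with Lsm3 highest at 349 and 320 TPM and Dcp2 lowest at 9.38 and 9.98 TPM. Eri1, the nuclease that trims the stem-loop, was at 22.5 and 24.7 TPM.

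All 14 chaperone and acetylation genes were expressed as well, at a median of 158 and 154 TPM. Rbbp4 was highest at 468 and 493 TPM, Nasp, which carries H3 and H4, was at 279 and 305 TPM, and Mms22l was lowest at 38.3 and 40.4 TPM. No gene of these 4 lists was called higher or lower between the libraries.

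The 10 genes listed as replacement histones were all expressed, at 36.2 TPM or more on average, and none was called between the libraries. H3f3a and H3f3b, which encode H3.3, summed to 3612 and 4093 TPM, 17.9 and 18.9 times the sum of all H3 members. H1f0 and H1fx summed to 286 and 371 TPM, 3.22 and 4.17 times the sum of the H1 members. The 5 H2A replacement genes (H2afz, H2afv, H2afx, H2afy and H2afy2) summed to 4565 and 4624 TPM. That was 0.753 and 0.770 of the H2A members' sum, and 11.6 and 10.6 times that sum without Hist1h2ap. Levels of the replication-dependent genes were thus below those of their replacement counterparts for H1, for H3 and, once Hist1h2ap was left out, for H2A. As background, the SMARTer Ultra Low kit starts cDNA synthesis from poly(A) with an oligo(dT) primer, and the sources used here do not state how these total RNA libraries were primed. The ratios above and the level of Hist1h2ap can therefore not be told apart from how well RNA without a tail, or with an internal run of A bases, was captured.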

How the data were processed

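Per the file headers and sample text files, the authors quantified each library separately from transcriptome alignments on mm10 with GENCODE M4; the aligner, quantifier and strand setting were not given in the sources used here. The deposited gene and transcript tables hold expected counts, TPM, intervals whose level the tables do not state, and the percent of a gene's TPM per transcript. Expected counts over Ensembl rows were 38932257 and 42465764, and spike-ins took 3.89% and 3.45% of counts. The 0.297% and 0.293% of counts in rows that M21 does not name stayed out.

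Rows were joined to GENCODE M21 (GRCm38, the assembly of mm10) by identifier without version. Expected counts were rounded for TMM scaling and log2 CPM (prior count 2) in edgeR 4.0.16 under R 4.3.3, with DESeq2 1.42.0 size factors as an alternative. Counting intervals were exact binomial at 95% and, like the 3-count floors, cover counting error only. The scaling was tested on simulated data. Other steps used Python 3.11.15, pandas 2.3.3 and scipy 1.17.1. Windows of 100 bases were compared over all M21 transcripts.

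Members and lists were chosen with earlier results of these data known. Named members were the 3 highest and the lowest detected of each type, the testis genes, Hist4h4, and the 4 largest and smallest differences; others named, and list genes outside the highest and lowest, were chosen after their values were seen. An exact sign-flip test over 2 libraries cannot give a p below 0.5, so none is given. Each library is 1 pool, so pool and library cannot be told apart. Zcchc11 and Zcchc6 had no row under these symbols.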

Additional observations from a re-analysis of the deposited data

How the results depend on the processing

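The number of members expressed, 51, was 58 at 0.1 TPM, 20 at 10 TPM, 51 by posterior mean TPM, and 52 to 54 in a single library. The median of 5.17 TPM was 5.75 when TPM was rescaled over nuclear Ensembl rows, and 4.78 to 5.35 in single libraries. The H2A share, 88.3% on average, was 87.1% by expected counts and 34.1% without Hist1h2ap, and the Hist1 share, 98.3%, was 96.9% and 90.5%. Members higher in replicate 2 numbered 5, but 2 at a mean count of 100 or more and 0 at 2-fold; members lower numbered 5, but 1 and 2. Deposited TPM and spike-in scaling moved the median of all genes to 0.12 and 0.26, and that of the members to 0.12 and 0.24, so signs of small differences rest on the scaling. An element anywhere after the stop codon was found in 46 members, and in 48 with 1 mismatch, in place of 24. Models ending within 100 bases past it took 85.3% of the TPM in place of 84.3%. The search of genomic bases past the transcript ends was not run. Counting copies as 1 locus, chosen after the data were seen, left 49 expressed. No paired analysis was possible because there is 1 group.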
